A study of Macaca fascicularis with 64 samples.

Results

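Wild-type newborn liver and kidney of the cynomolgus monkey (Macaca fascicularis) were compared as 8 of the series' 64 RNA-seq libraries. The 8 were all libraries labelled liver or kidney from the wild-type newborns WT2 and WT3, with 2 repeat libraries of each organ per animal. The series examined tissues of wild-type monkeys and of monkeys carrying a mutation of SIRT6, a nuclear protein deacylase. The wild-type newborns carry no stated allele or treatment, and their age beyond the newborn stage is not given. The numerals in the titles were read as the animal and then the repeat, so the replicate is the animal (n = 2 per organ, the same 2 animals in both organs), and nothing in the labels says whether a repeat was a new piece of tissue. The other groups used were brain, heart, lung, muscle and thymus of WT2 and WT3 (20 libraries), and liver and kidney of the newborns KO2 and KO3, labelled SIRT6 mutant (8 libraries). The mutation itself is not described in the labels.

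Liver and kidney both take up sugars, amino acids and fatty acids from blood, make glucose during fasting and modify foreign compounds, and both use factors of the HNF family to switch on the genes for these tasks. The liver is organised around the hepatocyte, which secretes most plasma proteins, makes urea, bile acids and ketone bodies, and stores glycogen. The kidney is organised around the nephron, in which a filter of podocytes feeds a proximal tubule that recovers solutes, a loop and distal tubule that set salt balance, and a collecting duct that sets water and acid balance. Around birth the liver also holds blood-forming cells.

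Levels are given as FPKM, the authors' fragment counts scaled to transcript length and to the library's mapped fragments, as the mean of an animal's repeat libraries. Differences are on the log2(FPKM + 1) scale, which understates the change of low genes. Summed FPKM was 519053 to 541005 in the 4 liver libraries and 423147 to 437277 in the 4 kidney libraries. The 10 most abundant genes held 21.4% to 23.1% of the liver sum and 7.19% to 7.92% of the kidney sum, and 11517 to 11786 genes reached 1 FPKM in liver against 13483 to 13610 in kidney. The median gene was listed lower in liver, by a liver minus kidney difference of -0.62 log2 units. Each difference below is given relative to that median gene ("relative difference", liver minus kidney, so that positive values lie towards liver), with its standard error, while the adjusted p tests the difference before the median was subtracted. Read depths are not given in the files, so no counting interval could be made.

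Genes were tested where their mean over the 8 libraries was at least 1 FPKM, so a gene near 0 in 1 organ entered only through the other. Of the 13411 genes tested, 5478 passed limma at a Benjamini-Hochberg adjusted p of 0.05 (40.8% called). They were 944 higher in liver (7.04%) and 4534 higher in kidney (33.8%), so 17.2% of calls lay on the liver side. When each library was centred on its own median, 3130 genes passed (23.3%), with 1541 higher in liver (11.5%) and 1589 higher in kidney (11.8%), and 49.2% of calls lay on the liver side. With the animal as a replicate block 7987 passed (59.6%), 1310 higher in liver (9.77%) and 6677 in kidney (49.8%). Quantile normalisation gave 1470 and 1863, with 44.1% on the liver side. The centred set kept 944 of the liver calls and 1589 of the kidney calls, 2945 kidney calls no longer passed, and 0 genes were called in opposite directions. Counts for gene lists are therefore given both ways, first as deposited and then centred. The shares to read them against are those over all genes, 7.04% liver and 33.8% kidney as deposited and 11.5% and 11.8% centred. Leaving out 1 animal's kidney reduced the calls to 1921 (without WT2) or 1680 (without WT3), and leaving out 1 animal's liver left 4487 or 4611; in these fits the lone sample was assumed to vary like the other organ's. For 9145 of the 13411 genes (68.2%) all 4 libraries of one organ lay above all 4 of the other.

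**Figure D1:**
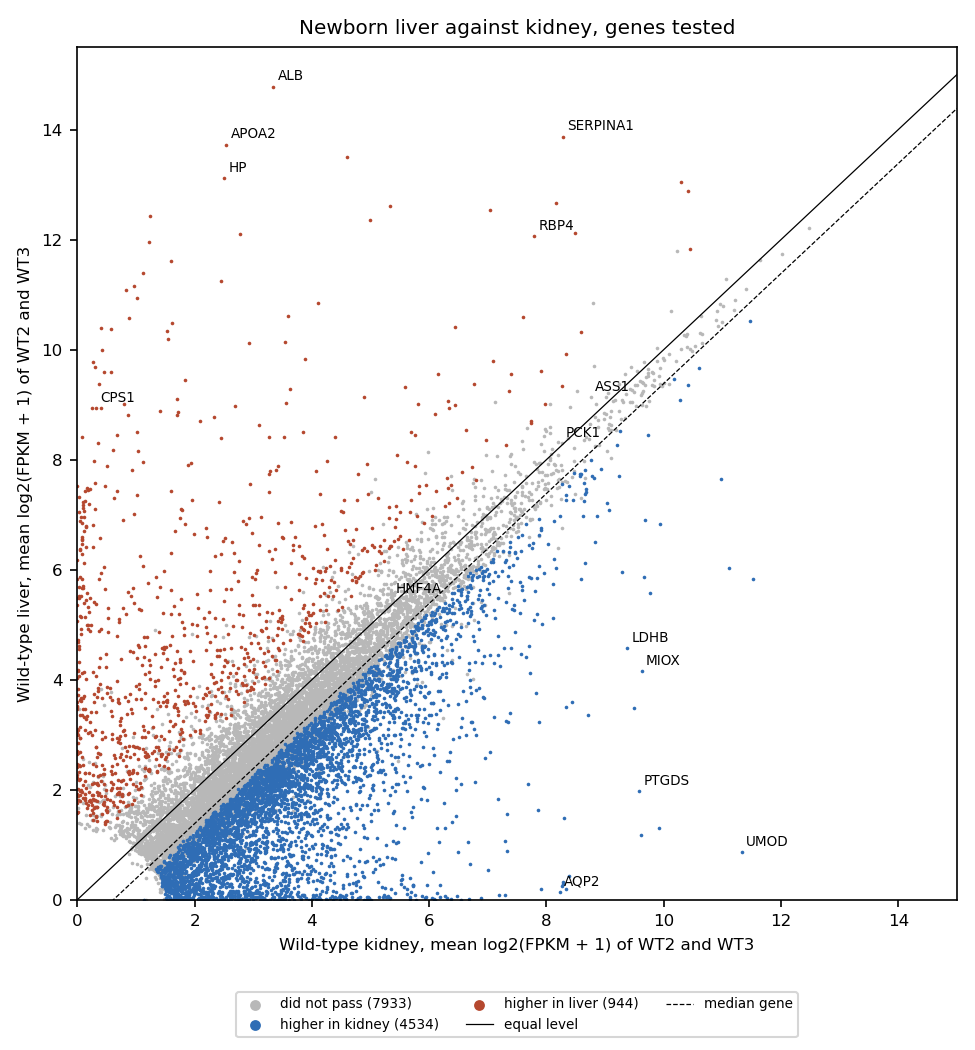
Each point is 1 of the 13411 tested genes, with its mean log2(FPKM + 1) of WT2 and WT3 in kidney (horizontal) and in liver (vertical); the solid line marks equal levels and the dashed line the median gene at -0.62. The 944 genes higher in liver reach far above the line at ALB and APOA2, the 4534 higher in kidney form a broad band below it that ends at UMOD and AQP2, and ASS1, PCK1 and HNF4A lie near it.

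Markers of the hepatocyte and of the nephron segments matched the organ labels. Summed over the hepatocyte markers, liver held 76531 FPKM in WT2 and 71535 in WT3 against 757 and 692 in kidney, and 9 of 10 markers were higher in liver, also after centring. The exception was HPD, an enzyme of tyrosine breakdown that both organs held. Proximal tubule markers summed to 2509 and 2635 FPKM in kidney against 85.6 and 94.9 in liver, with 20 of 20 higher in kidney (19 centred). Kidney was also higher for 9 of 11 markers of the loop and distal tubule (9 centred), 10 of 10 of the collecting duct (9 centred) and 10 of 11 of the podocyte (8 centred). Over all genes 33.8% were higher in kidney, and 11.8% centred. Markers very low in liver were tested only through their kidney level, so the filter favours such counts. The single loop marker higher in liver was KNG1, the kininogen gene, at 180 and 154 FPKM against 66.7 and 47.1; this call was lost without 1 animal's kidney (limma adjusted p = 0.054 without WT2, 0.0975 without WT3). Nephron progenitor genes were low: SIX2, which marks cells that still form nephrons, had 0.103 and 0.944 FPKM in kidney.

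Other cells moved with the organs. Markers of the bile duct epithelium, among them KRT7, KRT19 and EPCAM of epithelial cells in general, did not follow the liver label: 0 of 6 were higher in liver and 5 in kidney, as deposited and centred, with sums of 31.0 and 22.5 FPKM in liver against 391 and 487 in kidney. The KRT7 call was lost without 1 animal's kidney (limma adjusted p = 0.0891 without WT2, 0.137 without WT3). Stellate cell markers were higher in liver for 5 of 6 genes (6 centred) and those of the sinusoidal endothelium for 4 of 5 (4 centred). All 12 macrophage markers were higher in liver both ways, with sums of 1209 and 1021 FPKM against 79.8 and 64.5. C1QA, a complement subunit made by macrophages, had 248 and 225 FPKM in liver and 11.3 and 8.56 in kidney. Of 13 red cell markers, 4 were higher in liver and 0 in kidney as deposited, and 11 and 0 centred, with sums of 4402 and 3258 against 1508 and 1349. Neutrophil markers summed to 1687 FPKM in WT2 liver and 141 in WT3 liver, and to 171 and 31.6 in kidney, so WT2 was the higher animal in both organs. UCP1, the uncoupling protein of brown fat, had 6.25 FPKM in WT3 kidney and 0.0873 in WT2 kidney. The part of these other cells in the differences below was not tested, and in whole tissue fewer cells of a type cannot be told apart from less RNA per cell.

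Plasma proteins had the highest median of the pathway lists. Of 43 genes of the plasma protein and coagulation list 42 were tested. All 42 were higher in liver (7.04% of all genes were), before and after centring, with a median relative difference of 7.90. Members near 0 in kidney were tested only through their liver level, so the filter favours such a count. ALB, serum albumin, had 34027 and 32323 FPKM in the libraries of WT2 liver and 24134 and 23579 in those of WT3 liver. The same gene had 23.5 and 21.7 FPKM in WT2 kidney and 9.28 and 0.863 in WT3 kidney. Every liver library lay above every kidney library, with the widest relative difference of all 13411 genes (12.05 ± 0.78 SE, limma adjusted p = 0.000632, n = 2 animals per organ). ALB alone made up 4.36% to 6.56% of the liver FPKM.

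The next genes on the liver side were secreted proteins too. APOA2, an apolipoprotein of high-density lipoprotein, had 10161 and 18088 FPKM in liver and 5.06 and 5.72 in kidney (11.80 ± 0.33 SE, limma adjusted p = 0.000119). FGG and FGA, chains of fibrinogen, had relative differences of 11.80 and 10.63. AHSG (fetuin-A) stood at 11.34, HP (haptoglobin, which binds free haemoglobin) at 11.23 and HPX (hemopexin, which binds haem) at 10.86. AMBP, the precursor of alpha-1-microglobulin and bikunin, stood at 10.88 and ITIH4, an inter-alpha-trypsin inhibitor heavy chain, at 10.42. C3, the central complement component, stood at 10.52, APOC2, the cofactor of lipoprotein lipase, at 10.31 and SPP2, a secreted phosphoprotein, at 10.12. HAMP, which encodes the iron hormone hepcidin, had 1863 and 963 FPKM in liver against 0.398 and 0.303 in kidney (10.60). ORM1 and SAA4, plasma proteins of the acute-phase group, stood at 10.81 and 10.19 but differed between the animals: ORM1 had 1030 FPKM in WT2 liver and 5032 in WT3 liver, and SAA4 386 and 2665.

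Not all plasma protein genes were near 0 in kidney. SERPINA1, the elastase inhibitor alpha-1-antitrypsin, had 19245 and 11646 FPKM in liver and 309 and 314 in kidney (6.20 ± 0.29 SE, limma adjusted p = 0.000292). RBP4, the carrier of retinol in plasma, had 358 and 136 FPKM in kidney against 3959 and 4632 in liver, and SERPINF2, the plasmin inhibitor, 72.2 and 41.8 against 605 and 444. In 11 of the 42 genes all 8 liver and kidney libraries lay above all 20 libraries of the other tissues (3.54% of 14926 genes did). TF, the transferrin gene and normally an abundant liver product, was listed at 0.124 and 0 FPKM in liver, so a 0 in this table was not read as absence.

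On the kidney side the widest differences fell along the nephron. UMOD, which encodes uromodulin of the thick ascending limb, had 2728 and 2715 FPKM in the libraries of WT2 kidney and 2402 and 2479 in those of WT3 kidney. In liver it had 1.55 and 1.42 FPKM in WT2 and 0.532 and 0.191 in WT3, and the organs did not overlap (-9.84 ± 0.35 SE, limma adjusted p = 0.00012). SLC12A1, the sodium-potassium-chloride cotransporter of the same segment, had 314 and 329 FPKM in kidney against 0.198 and 0.0885 (-7.53). AQP2, the water channel of the collecting duct, had 236 and 377 against 0.1 and 0.116 (-7.46). CALB1, a calcium-binding protein of the distal tubule, stood at -6.21 and MAL, a protein of apical membrane sorting, at -6.24.

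Proximal tubule genes made up another share of the kidney side. SLC34A1, the sodium-phosphate cotransporter of the brush border, had 141 and 172 FPKM in kidney and 0.0688 and 0.0429 in liver (-6.60). PDZK1IP1, a small membrane protein partnered with the scaffold PDZK1, had 1009 and 931 FPKM against 2.13 and 0.963 (-8.01). DPEP1, a dipeptidase of the brush border, stood at -7.33, and SLC22A2, an organic cation transporter, at -6.49. DHDH, a dihydrodiol dehydrogenase, had 1157 and 532 FPKM in kidney and 1.2 and 1.32 in liver (-7.83). CDH16, the kidney cadherin, stood at -7.39, LGALS2, a galectin, at -7.38, WFDC2, a secreted protein of epithelia, at -7.33 and TSPAN1, a tetraspanin, at -7.09. PTGDS, a prostaglandin D synthase, was less even between animals, at 1272 and 462 FPKM in kidney (-7.00 ± 0.76 SE).

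Liver and kidney together were compared with the other 5 wild-type tissues in 1 contrast, the mean of both organs minus the mean of the others. Of 14926 genes 7180 passed (48.1%), 3343 with a higher mean (22.4%) and 3837 with a lower one (25.7%). A single organ can carry this mean, as it did for ALB, so a pass does not show that both organs held the gene. Genes were therefore called shared only where every library of both organs lay above every library of the other tissues. In 529 genes (3.54%) all 8 liver and kidney libraries lay above all 20 others. Within these 529 the organs could still differ: 140 were higher in liver, 73 were higher in kidney and 316 did not pass as deposited, and 216 and 36 were called after centring. For 56 of the 529 the 95% interval of the relative difference stayed within 1 log2 unit either way, so for most of the others a like level was not shown.

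Enzymes of glucose and amino acid metabolism were among the genes highest in both organs. PCK1, which commits carbon to glucose synthesis, had 165 and 164 FPKM in the libraries of WT2 liver and 606 and 591 in those of WT3 liver. Kidney read 232 and 229 FPKM in WT2 and 404 and 402 in WT3, so the kidneys lay between the livers, and the highest library of another tissue had 4.93 FPKM (7.66 ± 0.38 SE, limma adjusted p = 2.6e-08, as the mean of liver and kidney minus the other tissues). FBP1, the later gluconeogenic phosphatase, had 196 and 382 against 239 and 300 (6.75). ASS1, which joins citrulline to aspartate in both urea and arginine synthesis, had 362 and 871 against 402 and 463 (6.83).

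The other genes of this set were enzymes of amino acids, bases, fatty acids and conjugation, and 1 regulator. HPD, the dioxygenase of tyrosine breakdown, had 173 and 193 FPKM in liver and 231 and 156 in kidney. PRODH2, a hydroxyproline dehydrogenase, had 86.1 and 89.1 against 85.9 and 86.3, which is a relative difference of 0.64 (95% interval 0.08 to 1.20). ACMSD, which diverts tryptophan carbon away from nicotinamide synthesis, had 18.8 and 30.6 against 47.4 and 60.5. DPYS, of pyrimidine breakdown, and AOC1, the diamine oxidase, had differences from the other tissues of 6.60 and 6.17. CYP4A11, a fatty acid omega-hydroxylase, stood at 7.08, and SLC27A2, a very-long-chain acyl-CoA synthetase, at 5.97. Conjugating enzymes stood at 7.18 (UGT2B20, glucuronidation), 6.75 (UGT1A1, bilirubin glucuronidation) and 6.87 (GLYAT, glycine conjugation). HNF4A, the nuclear receptor that drives many of these genes in liver and proximal tubule, had 37.3 and 49.2 FPKM in liver, 36.8 and 43.7 in kidney and at most 0.216 in a library of another tissue (5.36). Of the 14 genes described, ACMSD alone passed between liver and kidney. With the animal as a block, UGT1A1 and GLYAT also passed towards kidney (limma adjusted p = 0.0416 and 0.0174, against 0.0628 and 0.0628 without the block). ACMSD passed towards kidney as deposited (limma adjusted p = 0.0419) but not after centring (0.352), and its lead over the other tissues was 5.19.

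**Figure D2:**
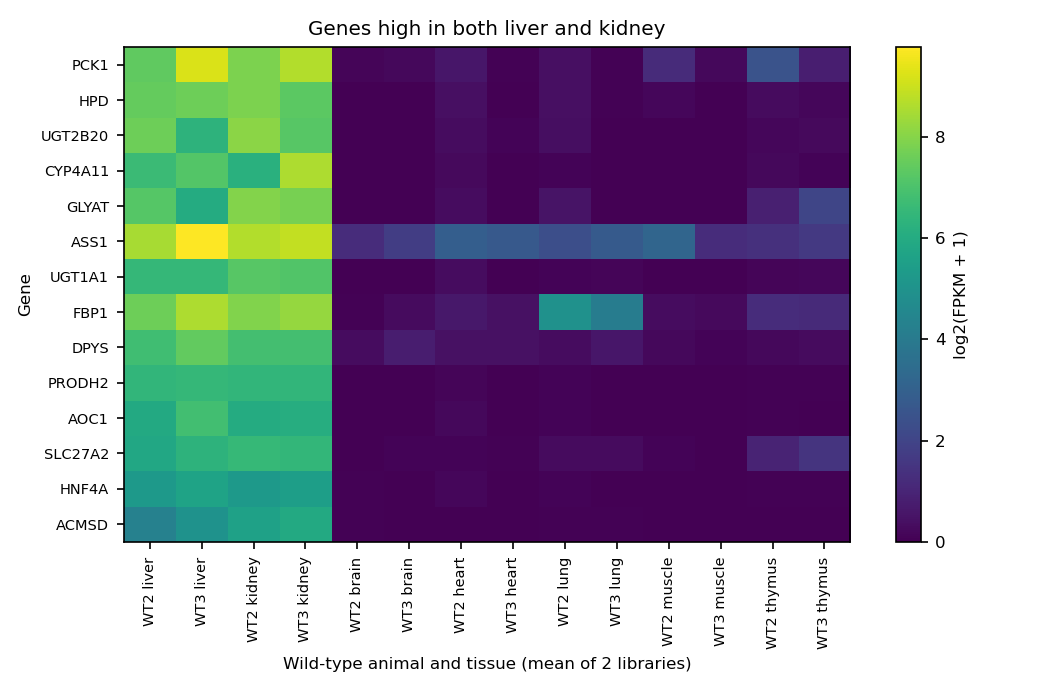
Colour gives log2(FPKM + 1), as the mean of an animal's 2 libraries, for 14 genes high in both organs (rows) in the 7 wild-type tissues of WT2 and WT3 (columns). Liver and kidney columns are brighter than all others in every row, and of the other tissues FBP1 in lung comes nearest, at up to 31.4 FPKM in a library.

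Glucose synthesis held shared genes and genes of 1 organ. Of 15 tested genes of gluconeogenesis 6 lay above all 20 libraries (3.54% of all genes did). The mean of both organs was higher than that of the other tissues for 13 and lower for 1 (22.4% and 25.7% of all genes). Between the organs 3 were higher in liver and 1 in kidney as deposited, 7 and 1 after centring (median relative difference 1.25). G6PC, the phosphatase that releases free glucose, had 281 and 266 FPKM in liver and 135 and 205 in kidney and passed towards liver only after centring (limma adjusted p = 0.0945 as deposited, 0.0196 centred). PCK2, the mitochondrial PEP carboxykinase, had 143 and 107 against 194 and 167, and SLC37A4, the glucose 6-phosphate carrier of the endoplasmic reticulum, 43.9 and 54.0 against 75.0 and 67.8. Both lay above all 20 other libraries.

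Genes of the substrates for this route differed. SDS, the dehydratase that turns serine into pyruvate, had 92.9 and 127 FPKM in liver and 0.129 and 0.097 in kidney (7.24 ± 0.26 SE, limma adjusted p = 0.00015). CREB3L3, a hepatic fasting-response factor, stood at 5.66. LDHB, the lactate dehydrogenase subunit typical of tissues that use lactate, had 711 and 623 FPKM in kidney and 27.2 and 19 in liver (-4.19 ± 0.27 SE, limma adjusted p = 0.000383). Its partner subunit LDHA leaned the other way, with 245 and 492 FPKM in liver and 46.6 and 61.1 in kidney (3.30). GOT2, the mitochondrial aspartate aminotransferase, stood at 2.16. Calls for LDHA and GOT2 were lost without 1 animal's kidney (limma adjusted p = 0.0707 and 0.0946 without WT2, 0.061 and 0.0662 without WT3).

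Fructose and polyol genes were shared in 9 of 12 cases by the same measure, all 8 libraries above all 20 (3.54% of all genes). Between the organs 3 of the 12 were higher in liver and 4 in kidney as deposited (7.04% and 33.8% of all genes were). After centring the counts were 4 and 3. KHK, ketohexokinase, the first enzyme of fructose breakdown, had 44.7 and 87.0 FPKM in liver and 105 and 94.8 in kidney and did not pass (relative difference -0.05, 95% interval -0.98 to 0.87). The uptake carriers differed: SLC2A2, the low-affinity glucose carrier, had 107 and 165 FPKM in liver and 13.3 and 34.9 in kidney (3.18), and SLC2A5, a fructose carrier, 2.21 and 0.236 against 14.7 and 20.5 (-2.59). MIOX, which opens the ring of myo-inositol, had 885 and 699 FPKM in kidney against 11 and 25.6 in liver (-4.85 ± 0.43 SE, limma adjusted p = 0.000941). AKR1B1, which reduces glucose to sorbitol, had 24.1 FPKM in WT2 kidney and 226 in WT3 kidney and did not pass, except with the animal as a block (towards kidney, limma adjusted p = 0.017). Without WT2 kidney the calls for SLC2A2 and SLC2A5 were lost (limma adjusted p = 0.0748 and 0.0598), and that for SLC2A5 also without WT3 kidney (0.0842).

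In amino acid breakdown 23 of 49 tested genes lay above all 20 libraries (3.54% of all genes did). The mean of both organs was higher than elsewhere for 45 and lower for 0 (22.4% and 25.7% of all genes). The 45 include genes near 0 in kidney such as TAT, TDO2 and HAL. Between the organs 14 of the 49 were higher in liver and 10 in kidney as deposited (7.04% and 33.8% of all genes were). After centring the counts were 17 and 4. For tyrosine the levels differed by step. TAT, the first and rate-setting transaminase, had 214 and 256 FPKM in liver and 0.35 and 0.505 in kidney (7.99 ± 0.24 SE, limma adjusted p = 0.00012). The next enzyme, HPD, did not pass, and HGD, the one after it, had 47.4 and 61.3 against 23.2 and 28.8 (1.65). FAH, which ends the route, had 67.9 and 83.2 against 55.6 and 51.4 and passed only after centring. The call of HGD was lost without 1 animal's kidney (limma adjusted p = 0.191 without WT2, 0.136 without WT3) or without WT3 liver (0.069).

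Tryptophan and histidine breakdown also held early steps that were near 0 in kidney. TDO2, the dioxygenase that opens tryptophan, had 172 and 178 FPKM in liver and 0.136 and 0.206 in kidney (7.85), and AFMID, the next enzyme, stood at 4.59. KMO, further along, had 9.27 and 24.3 against 14.6 and 14.6 and HAAO 194 and 188 against 146 and 76.7; neither passed as deposited, though HAAO did towards liver with the animal as a block (limma adjusted p = 0.0498). All 4 histidine genes of the list were higher in liver: HAL, which starts the route, had 21.5 and 44.3 FPKM against 0.0162 and 0.279 (5.42), UROC1 stood at 5.49, AMDHD1 at 4.16 and FTCD at 5.95. CDO1, which oxidises cysteine, had 152 and 369 against 2.09 and 3.59 (6.62), and CBS, of homocysteine removal, 57.5 and 51.0 against 6.33 and 5.09 (3.66).

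Kidney held other steps. DAO, which oxidises D-amino acids, had 29.5 and 18.2 FPKM in kidney and 0.125 and 1.68 in liver (-3.18). DDO, its counterpart for D-aspartate, had 6.31 and 4.39 against 0.0887 and 0.16 (-1.87). HOGA1, the last aldolase of hydroxyproline breakdown, had 47.6 and 52.9 against 9.79 and 13.1 (-1.43). ALDH6A1, of valine and thymine breakdown, had 130 and 101 against 30.5 and 28 (-1.32). Without WT2 kidney DAO, HOGA1 and ALDH6A1 missed the threshold (limma adjusted p = 0.0509, 0.0507 and 0.0571), and HOGA1 also without WT3 kidney (0.0632). The branched-chain genes BCKDHA, BCKDHB and DBT did not pass, and DBT passed towards kidney with the animal as a block (limma adjusted p = 0.0281).

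In methyl-group metabolism MAT1A, GNMT and PEMT were on the liver side, and the betaine enzymes were held by both organs. Of 22 one-carbon genes 12 lay above all 20 libraries, and 18 had a higher mean of both organs than elsewhere (3.54% and 22.4% of all genes). As deposited 6 were higher in liver and 5 in kidney, and 9 and 1 after centring. MAT1A, the hepatic S-adenosylmethionine synthetase, had 433 and 283 FPKM in liver and 0.232 and 1.07 in kidney (8.40 ± 0.37 SE, limma adjusted p = 0.000251). GNMT, which disposes of surplus methyl groups, had 262 and 438 against 13.7 and 8.06 (5.50), and PEMT, which makes phosphatidylcholine by methylation, 164 and 273 against 23.0 and 30.8 (3.56). BHMT, which returns the methyl group of betaine to homocysteine, had 331 and 221 against 225 and 67.7 and passed towards liver only with the animal as a block (limma adjusted p = 0.176 without it, 0.0315 with it). DMGDH, the next enzyme for betaine carbon, had 36.0 and 30.0 against 45.5 and 30.6. FOLR1, a folate receptor, was the clearest kidney gene of the list (26.2 and 30.1 against 0.25 and 0.637 FPKM, -3.74).

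The first and last steps of the urea cycle were on the liver side. CPS1, which fixes ammonia, had 275 and 877 FPKM in liver and 0.21 and 0.308 in kidney (9.23 ± 0.56 SE, limma adjusted p = 0.00055). OTC, which makes citrulline, had 27.7 and 23.5 against 0 and 0.0101 (5.34), ARG1, which releases urea, 140 and 208 against 0.551 and 0.638 (7.37), and SLC25A15, the ornithine carrier of mitochondria, 62.5 and 44.8 against 1.35 and 1.25 (5.17). NAGS, which makes the activator of CPS1, had 10.5 and 6.91 against 1.85 and 2.16 (2.29), a call lost without 1 animal's kidney (limma adjusted p = 0.0918 without WT2, 0.0885 without WT3). The middle steps were held by both organs: beside ASS1, the lyase ASL had 38.8 and 98 against 22.4 and 41.1 and passed towards liver only with the animal as a block (limma adjusted p = 0.176 without it, 0.0146 with it). Over the list of 17, as deposited 8 were higher in liver and 4 in kidney, and centred 9 and 3.

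Ammonia handling on the kidney side had other genes. RHCG, an ammonia channel of the collecting duct, had 30.8 and 29.5 FPKM in kidney and 0.0249 and 0 in liver (-4.33 ± 0.22 SE, limma adjusted p = 0.000206). GLS2, a glutaminase of liver, had 40.6 and 35.9 FPKM in liver and 1.34 and 0.855 in kidney (4.85). GLUL, glutamine synthetase, had 307 and 148 against 203 and 169 and did not pass.

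Most genes of fatty acid oxidation did not differ past the threshold between the organs as deposited. Of 20 tested genes of the mitochondrial list 7 lay above all 20 libraries (3.54% of all genes did). All 20 genes had a higher mean of both organs than of the other tissues, heart and muscle among them (22.4% of all genes did). Between the organs 1 was higher in liver and 1 in kidney as deposited, while after centring 11 were higher in liver and 1 in kidney (median relative difference 0.99), so the lean towards liver depended on the scaling. ACAA2, the last thiolase of the spiral, had 298 and 285 FPKM in liver and 194 and 192 in kidney. ACADM, the medium-chain dehydrogenase, had 75.1 and 76.4 against 86.5 and 90.6. The call towards liver was CPT1A, the carnitine transferase that admits acyl groups, with 129 and 134 against 38.9 and 64.7 (1.98), and that towards kidney was SLC22A5, the carnitine carrier, with 32.9 and 43.6 against 3.96 and 7.77 (-1.94). Both were lost without 1 animal's kidney (limma adjusted p = 0.128 and 0.0512 without WT2, 0.0583 and 0.075 without WT3).

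Of 7 tested genes of the ketone body list 3 were higher in liver and 2 in kidney, as deposited and after centring. OXCT1, the transferase needed to burn ketone bodies, had 20.9 and 16.3 in kidney and 0.512 and 0.545 in liver (-3.06 ± 0.24 SE, limma adjusted p = 0.000564). ACSS1, a mitochondrial acetyl-CoA synthetase, stood with OXCT1 at -2.50, and SLC16A1, a carrier of lactate and ketone bodies, lay towards liver at 3.21. ACAT1, a thiolase used in both directions, had 164 and 160 against 203 and 191 and did not pass.

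Of 22 peroxisomal genes 10 lay above all 20 libraries, and 17 had a higher mean of both organs than elsewhere (3.54% and 22.4% of all genes). As deposited 2 were higher in liver and 1 in kidney, and 9 and 0 after centring. HAO1, the glycolate oxidase of liver peroxisomes, had 45.7 and 37.1 FPKM in liver and 0.0811 and 0.0795 in kidney (5.90). EHHADH, the bifunctional enzyme, had 57.8 and 63.5 against 38.6 and 56.8. HAO2, a long-chain hydroxyacid oxidase, had 169 and 57.9 FPKM in kidney and 5.58 and 43.5 in liver and did not pass.

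Genes of lipid export lay mostly on the liver side. Of 23 genes of fat synthesis and lipoproteins 15 were higher in liver and 1 in kidney (17 and 0 centred), with a median relative difference of 3.11. APOB, the structural protein of very-low-density lipoprotein, had 455 and 476 FPKM in liver and 2.18 and 2.37 in kidney (7.77 ± 0.23 SE, limma adjusted p = 0.000119). MTTP, which loads lipid onto it, had 26.0 and 49.3 against 5.84 and 5.73 (3.06), a call lost without 1 animal's kidney (limma adjusted p = 0.0682 without WT2, 0.0768 without WT3). APOE, a ligand of lipoprotein receptors, was abundant in both, with 8357 and 6844 against 1515 and 1220 (3.09). APOM, a carrier of sphingosine 1-phosphate, had 119 and 104 against 182 and 127, did not pass between the organs and had at most 7.54 FPKM in a library of another tissue.

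Cholesterol synthesis leaned to liver. Of 22 genes 7 were higher in liver and 0 in kidney as deposited, 12 and 0 centred (median 1.69). The mean of both organs was higher than that of the other tissues for 12 (22.4% of all genes). DHCR7, the last reductase of the pathway, had 80.3 and 65.3 FPKM in liver and 10.1 and 7.99 in kidney (3.50 ± 0.26 SE, limma adjusted p = 0.00138). MSMO1, a sterol oxidase, stood at 2.41 and EBP, a sterol isomerase, at 1.80, and both calls were lost without 1 animal's kidney (limma adjusted p = 0.171 and 0.138 without WT2, 0.15 and 0.113 without WT3). WT2 liver was above WT3 liver for 17 of the 22, by a median of 0.58, and WT2 kidney above WT3 kidney for 9 (median -0.14); for all tested genes the medians were -0.03 and -0.08.

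Bile acid genes were mostly on the liver side. Of 18 genes 13 were higher in liver and 2 in kidney (14 and 2 centred, median 3.19). CYP7A1, which starts the classical route, had 12.7 and 8.03 FPKM in liver and 0.0742 and 0.0781 in kidney (3.98 ± 0.29 SE, limma adjusted p = 0.00117). CYP8B1, which sets cholic acid, stood at 5.55 and BAAT, which conjugates bile acids, at 6.15. SLC10A1, the uptake carrier of the hepatocyte, had 139 and 212 against 0.112 and 0.0729 (7.92), and ABCB11, the bile salt export pump, 49.6 and 41.0 against 0.038 and 0.0616 (6.07). SLC10A2, the apical carrier that recovers bile acids from filtrate, was listed at 0 in liver and at 3.87 and 3.63 in kidney (-1.63). NR1H4, the bile acid receptor, had 13.3 and 24.9 against 8.82 and 13.6 and passed towards liver only with the animal as a block (limma adjusted p = 0.0306), while NR0B2, its target and a repressor, had 7.66 and 12.2 against 0.33 and 0.034 (3.80).

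Enzymes that modify foreign compounds held shared members and members of 1 organ. Of 34 genes tested against the other tissues 18 lay above all 20 libraries (3.54% of all genes did). The mean of both organs was higher for 30 and lower for 1 (22.4% and 25.7% of all genes). Of 35 tested between the organs 14 were higher in liver and 5 in kidney (19 and 2 centred, median 1.50). CYP2E1, which oxidises ethanol and other small molecules, had 565 and 787 FPKM in liver and 0.344 and 0.291 in kidney (9.62 ± 0.27 SE, limma adjusted p = 0.000119), and CYP3A4, a broad drug oxidase, 483 and 455 against 0.657 and 3.34 (8.07). CYP2C8 was high in liver yet present in kidney, at 930 and 601 against 66.2 and 74.6 (4.01). The alcohol dehydrogenase ADH4 stood at 7.38, and POR, which passes electrons to these oxidases, had 440 and 645 against 59.5 and 106 (3.35). CYP1A2, typical of adult liver, was listed at 0.0115 and 0.0116 FPKM in liver. SULT2A1, a sulphotransferase of steroids and bile acids, had 0.681 FPKM in WT2 liver and 71.2 in WT3 liver and did not pass. Reads of close family members such as those of CYP2C, CYP3A and UGT1A may have been divided between copies by the authors' assembly, so single members of these families are uncertain.

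Carriers of organic ions were one of the few metabolic lists that leaned to kidney. Of 28 tested 5 were higher in liver and 16 in kidney as deposited, 7 and 12 centred (median -0.86). SLC22A6 and SLC22A8, the basolateral organic anion transporters of the proximal tubule, had 50.5 and 119 FPKM and 44.5 and 95.4 FPKM in kidney, and at most 0.0368 in liver (-5.65 and -5.41). SLC22A12, which recovers urate, had 71.1 and 143 against 0 and 0.0199 (-6.04 ± 0.38 SE, limma adjusted p = 0.000378). SLC22A2 had 163 and 130 FPKM in kidney against 0.0798 and 0.0523. Exporters were nearer: ABCC2, which sends conjugates into bile or urine, had 20.1 and 11.6 against 11.5 and 10.9 and ABCB1, a drug efflux pump, 6.84 and 7.33 against 10.1 and 13; neither passed, though ABCB1 did towards kidney with the animal as a block (limma adjusted p = 0.0345). SLC47A1 and SLC47A2, cation exporters of the tubule, stood at -1.91 and -3.89.

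Of 18 glycolysis genes 10 had a lower mean of liver and kidney than of the other tissues and 4 a higher one (25.7% and 22.4% of all genes). Between the organs 2 were higher in liver and 7 in kidney as deposited, and 3 and 3 after centring (median -0.20). The share higher in kidney as deposited was near that over all genes (33.8%). PKM, the pyruvate kinase of most tissues, had 180 and 195 FPKM in kidney and 26.0 and 17.2 in liver (-2.48 ± 0.29 SE, limma adjusted p = 0.0015), and PFKM, a phosphofructokinase subunit, 15.2 and 21.4 against 1.03 and 0.626 (-2.78).

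Glycogen genes leaned to liver, 9 of 15 higher there and 3 in kidney, 10 and 0 centred (median 1.61). PYGL, the liver phosphorylase, had 74.6 and 80.9 FPKM in liver and 2.80 and 1.41 in kidney (5.32 ± 0.30 SE, limma adjusted p = 0.000543), and GYS2, the liver synthase, 40.6 and 47.6 against 0.0257 and 0.0239 (6.07). PPP1R3B, which targets phosphatase to glycogen, stood at 3.73, and UGP2, of UDP-glucose supply, at 1.68. The call of UGP2 was lost without WT2 kidney (limma adjusted p = 0.147), WT3 kidney (0.169) or WT3 liver (0.0573).

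For respiration the calls between the organs depended on the scaling. As deposited 13 of 21 genes of the tricarboxylic acid cycle were higher in kidney and 0 in liver (33.8% of all genes were higher in kidney), but 1 and 0 after centring (median -0.36). The interval stayed within 1 log2 unit for 7 of the 21, so a like level was not shown for most. Of 42 nuclear genes of oxidative phosphorylation 0 were higher in liver and 3 in kidney, and 2 and 0 after centring, with a median of 0.02 and 19 whose interval stayed within 1 log2 unit. Both lists were higher in WT3 than in WT2 liver: WT2 was the higher animal for 2 of 21 and 2 of 42 genes in liver and for 3 of 21 and 6 of 42 in kidney. The proliferation list was the reverse, with WT2 above WT3 for 19 of 20 genes in liver (median 0.82) and 13 of 20 in kidney (0.38), and between the organs 0 of 20 were higher in liver and 1 in kidney, 1 and 0 centred. Red cell and neutrophil markers were higher in WT2 liver for 13 of 13 and 10 of 10 genes, with medians of 1.52 and 3.48. Their part in the animal difference was not tested.

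**Figure D3:**
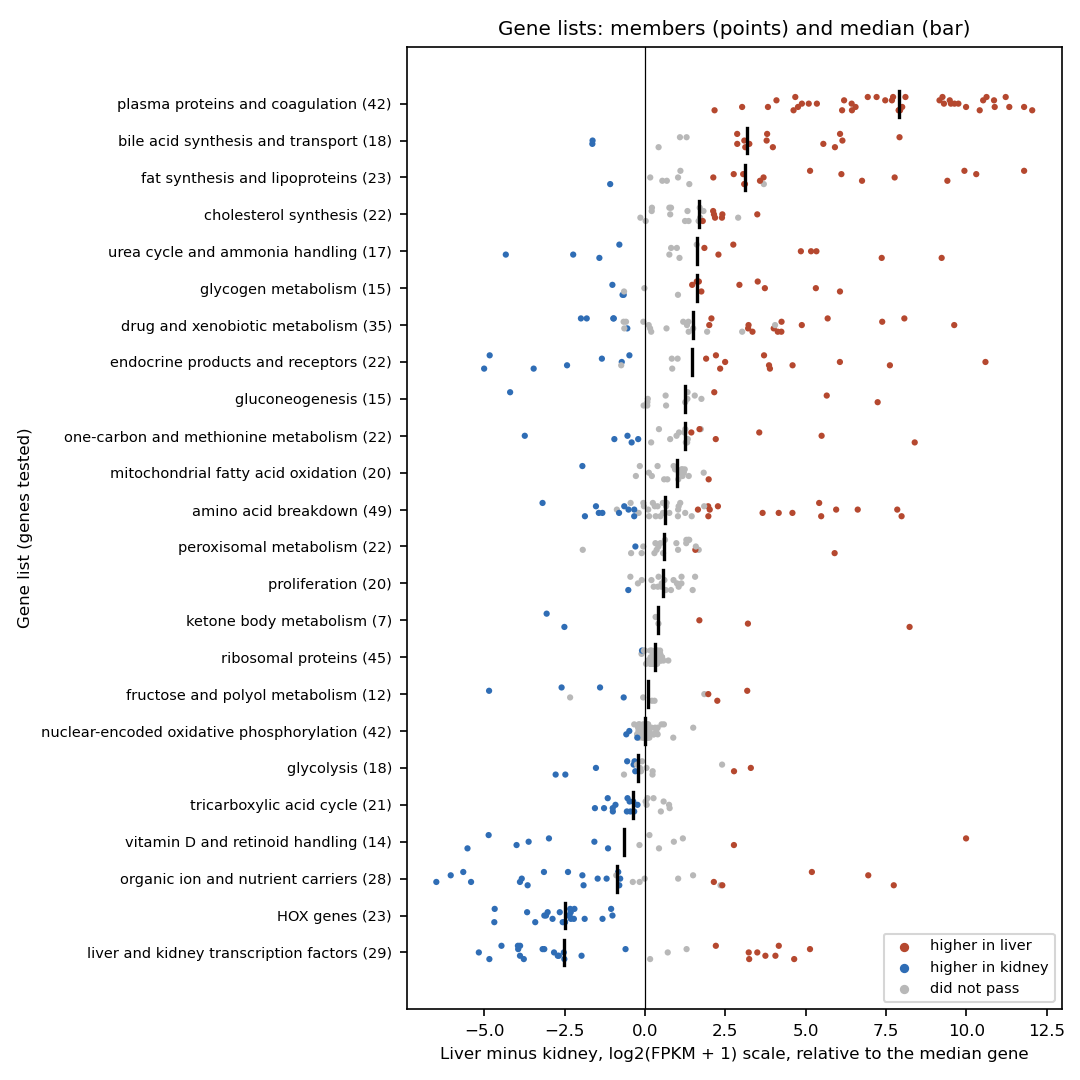
Each point is a tested gene of a list (rows, with the number tested) at its liver minus kidney difference relative to the median gene on the log2(FPKM + 1) scale; the bar is the list's median and colour gives the call as deposited. Medians run from 7.90 for plasma proteins to -2.51 for transcription factors, and oxidative phosphorylation clusters at 0.02. Fatty acid oxidation (median 0.99) and peroxisomes (median 0.60) have few calls as deposited.

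Hormone systems had members on both sides. AGT, angiotensinogen, had 1277 and 1464 FPKM in liver and 79.8 and 92.2 in kidney (4.59 ± 0.23 SE, limma adjusted p = 0.000396). For vitamin D, GC, the plasma carrier, had 741 and 909 FPKM in liver against 0.434 and 0.0693 (9.99). CYP27B1, which makes the active hormone, had 52.7 and 30.6 in kidney against 0.543 and 0.855 (-3.99), and LRP2 and CUBN, which recover the carrier from filtrate, stood at -4.86 and -5.52. CYP2R1, a hydroxylase of vitamin D in the preceding step, had 2.00 and 2.99 against 2.58 and 3.30 and did not pass. KL, the co-receptor for FGF23, and PTH1R, the parathyroid hormone receptor, stood at -4.83 and -3.46.

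Genes of the insulin-like growth factor axis included members higher in liver. IGF2, the fetal growth factor, had 1758 and 930 FPKM in liver and 404 and 369 in kidney (2.34), and IGF1 31.6 and 16.1 against 1.86 and 1.70 (3.71). Both calls were lost without WT3 kidney (limma adjusted p = 0.128 and 0.0544), and that of IGF2 without WT2 kidney (0.102). IGFBP1, a binding protein induced in fasting, had 1230 and 1972 against 16.6 and 7.34 (7.62). IGFBP4 had 684 and 822 against 606 and 683 and did not pass. GCGR, the glucagon receptor, had 56.4 and 35.2 against 40.5 and 27.6, did not pass between the organs and lay above all 20 other libraries. Across the endocrine list 11 of 22 were higher in liver and 7 in kidney as deposited (7.04% and 33.8% of all genes were). After centring the counts were 12 and 5 (median 1.46).

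Transcription factors marked the shared and the separate parts. Of 29 tested 9 were higher in liver and 17 in kidney (9 and 16 centred, median -2.51). HNF4A and NR1H4 lay above all 20 other libraries. FOXA1, FOXA2 and FOXA3, pioneer factors of gut-derived organs, had at least 10.1 FPKM in liver in each animal and at most 0.354 in kidney (4.17, 4.64 and 4.06). ONECUT1, of liver and bile duct development, had 22.9 and 22.0 against 0.023 and 0.0194 (5.14), and NR1I2, the drug-sensing receptor, 23.5 and 22.3 against 1.32 and 2.19 (3.75). NR1I3, a related receptor, was under the filter.

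PAX2 and PAX8, which specify the nephric lineage, had 21.5 and 23.2 FPKM and 51.3 and 53.0 FPKM in kidney and at most 0.235 in liver (-3.88 and -4.84). POU3F3, of nephron segmentation, was listed at 0 in liver and had 50.4 and 58.0 in kidney (-5.17 ± 0.23 SE, limma adjusted p = 0.00015). EMX2 stood at -3.94, TFCP2L1, of the collecting duct, at -4.46, and WT1, of the podocyte, at -3.89. All 23 tested HOX genes, which record position along the body axis, were higher in kidney as deposited and 22 after centring (median -2.48). Over all genes the shares were 33.8% and 11.8%. Their FPKM summed to 227 and 334 in kidney and to 1.78 and 4.17 in liver. With liver levels this low the HOX genes were tested through their kidney level, so the filter favours such a count. HOXD8 had 42.7 and 41.0 FPKM in kidney and 0.0615 and 0.135 in liver (-4.67), and HOXD9 33.6 and 45.6 against 0.0384 and 0 (-4.69).

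Pairs of related genes were listed because one is known from liver and the other from kidney or more widely, so their counts describe that choice. Among 22 pairs, written with the gene known from liver first, 11 had the first gene higher in liver and the second higher in kidney. After centring 9 pairs did, 7 of them among the 11. The first gene was higher in liver in 17 pairs and in kidney in 0, and the second was higher in kidney in 14 and in liver in 0; the remaining 5 first and 8 second genes did not pass. The 11 included the pairs MAT1A and MAT2A, and SLC10A1 and SLC10A2. AQP9, the glycerol channel of hepatocytes, stood at 7.11 and AQP1, the water channel of the proximal tubule, at -4.73. SLC13A5, a citrate carrier, had 4.90 and SLC13A3, a dicarboxylate carrier, -5.84. HSD11B1, which makes active cortisol, had 3.91 and HSD11B2, which inactivates it, -5.38. SLCO1B1 and SLCO4C1, organic anion carriers, stood at 6.95 and -2.39, CYP27A1 and CYP27B1, sterol and vitamin D hydroxylases, at 3.09 and -3.99, and PKLR and PKM at 2.77 and -2.48.

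Some pairs were less firm. MAT2A (-0.95), PYGB (-1.01), GYS1 (-0.69) and AGXT2 (-1.52) passed towards kidney as deposited but not after centring (limma adjusted p = 0.107, 0.0895, 0.111 and 0.142). The calls of MAT2A, PYGB, GYS1, AGXT2, AGXT (2.02), PKLR and CYP27A1 were lost without either animal's kidney, with adjusted p of 0.0533 to 0.191 without WT2 and 0.062 to 0.206 without WT3. Pairs in which neither gene passed were PRODH and PRODH2 and BHMT and BHMT2. With the animal as a block PRODH passed towards liver (limma adjusted p = 0.00596). In ARG1 and ARG2, ABCB11 and ABCB1, SLC27A5 and SLC27A2 and SLC2A2 and SLC2A1 the liver form was higher in liver and the other form did not pass. Of these liver forms, SLC27A5 (3.25) lost its call without WT2 or WT3 kidney (limma adjusted p = 0.0995 and 0.0741).

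**Figure D4:**
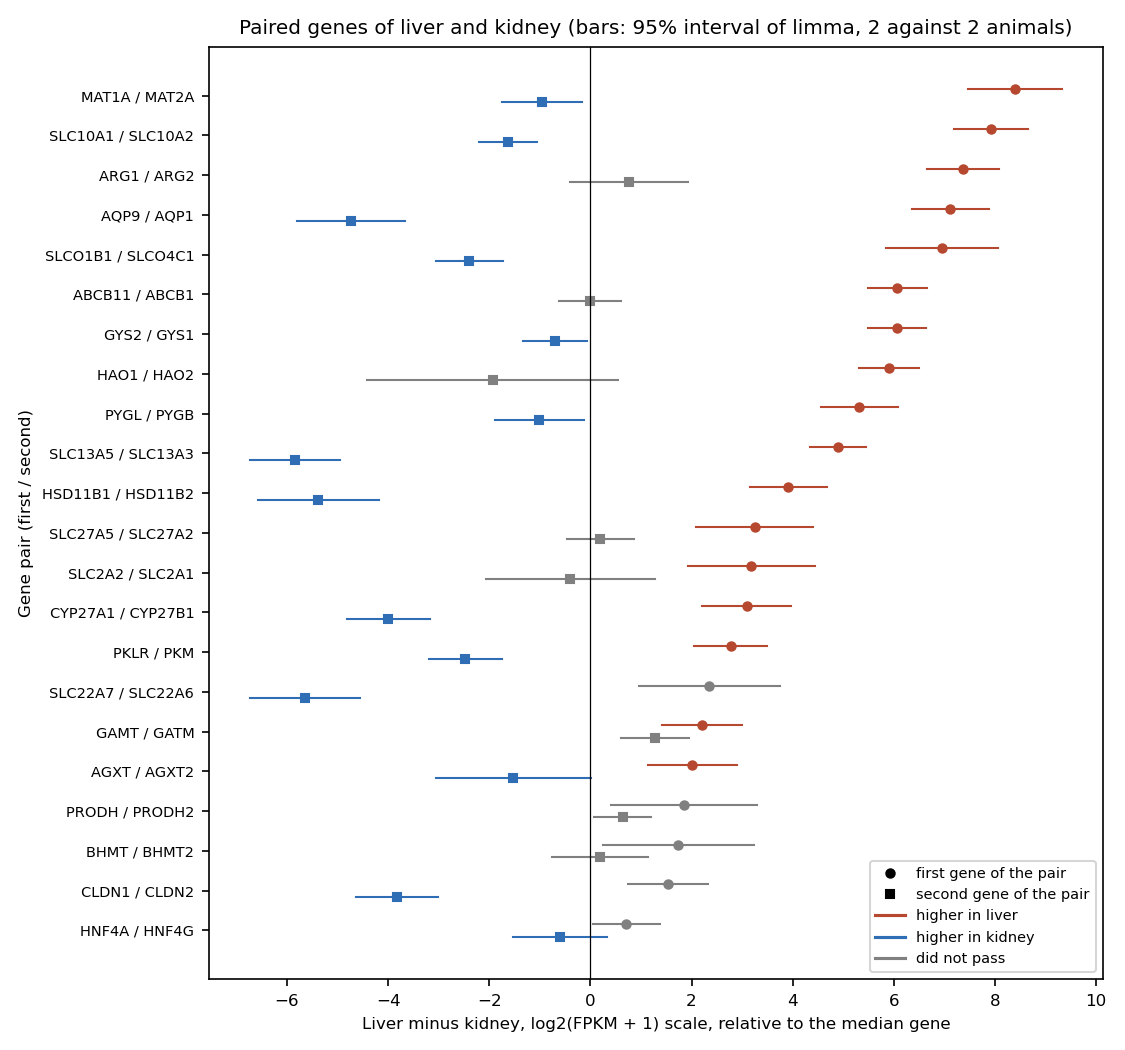
Rows are the 22 gene pairs; circles give the first gene and squares the second, at the liver minus kidney difference relative to the median gene, with the 95% interval of limma over 2 animals per organ and colour for the call as deposited. Circles lie right of 0 and squares spread mostly to the left, with wide gaps at SLC13A5 and SLC13A3 and at AQP9 and AQP1.

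Whether the organ difference itself differed by genotype was tested on each animal's own liver minus kidney value. SIRT6 had 6.18 and 8.62 FPKM in wild-type liver and 11 and 11.5 in wild-type kidney, against 3.07 and 6.87 in liver and 5.24 and 11.8 in kidney of KO2 and KO3. KO3 was thus between the wild-type values in liver and above them in kidney. A level over the whole gene does not tell an edited transcript from an intact one, so KO2 and KO3 are named by their labels. Of 13775 genes 227 passed (1.65%), 135 with the difference shifted towards liver in KO2 and KO3 (0.98%) and 92 towards kidney (0.668%). Without KO2 32 passed, without KO3 185, without WT2 203 and without WT3 119.

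The shifts towards liver included proximal tubule genes with lower kidney levels. SLC5A12, a lactate carrier of the brush border, had 45.9 and 54.9 FPKM in wild-type kidney and 3.67 and 2.56 in that of KO2 and KO3, and was at most 0.0654 in every animal's liver (3.72 ± 0.35 SE, limma adjusted p = 0.0184). DHDH had 1157 and 532 against 68.8 and 46.8 in kidney (6.12), and XPNPEP2, an aminopeptidase, 100.3 and 99.6 against 46.4 and 43.5 in kidney but 0.883 and 1.27 against 15.8 and 22.0 in liver (4.38). Summed proximal tubule markers were 2509 and 2635 FPKM in wild-type kidney and 535 and 507 in that of KO2 and KO3. Of the 20, 7 shifted towards liver (0.98% of all genes did) and 0 the other way. Loop and distal tubule markers summed to 3681 and 3415 against 375 and 674 (3 of 11 shifted towards liver). Collecting duct markers summed to 1095 and 1429 against 375 and 301 (1 of 10). Podocyte markers went the other way, at 548 and 515 against 812 and 842 (0 of 11, and 1 towards kidney). The part of these cells in the shifts was not tested.

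In liver the shifts went both ways. CYP2C75, a drug-oxidising enzyme, had 0.21 and 0.434 FPKM in wild-type liver and 49.9 and 44.9 in that of KO2 and KO3 (5.42 ± 0.34 SE, limma adjusted p = 0.00525). SDS had 92.9 and 127 in wild-type liver and 0.0572 and 0.064 in KO2 and KO3 (-6.71 ± 0.36 SE, limma adjusted p = 0.00387), and CRP, the acute-phase C-reactive protein, 287 and 701 against 2.57 and 0.622 (-5.97). ACSM1, of medium-chain acyl-CoA synthesis, stood at -4.53 and CYP2D17 at -4.40. Hepatocyte markers summed to 50078 and 75555 FPKM in liver of KO2 and KO3. Of genes high in both wild-type organs, HNF4A had 15.7 and 27.3 FPKM in liver and 4.68 and 16.7 in kidney of KO2 and KO3. Macrophage markers in liver summed to 1209 and 1021 FPKM in wild type and to 60.3 and 327 in KO2 and KO3. Of the 12, 2 shifted towards kidney (0.668% of all genes did), and the part of macrophages in these shifts was not tested. Without a filter on level 0 genes passed limma (3071 at an unadjusted p under 0.05), and without KO2 the DHDH call was lost (limma adjusted p = 0.0551).

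**Figure D5:**
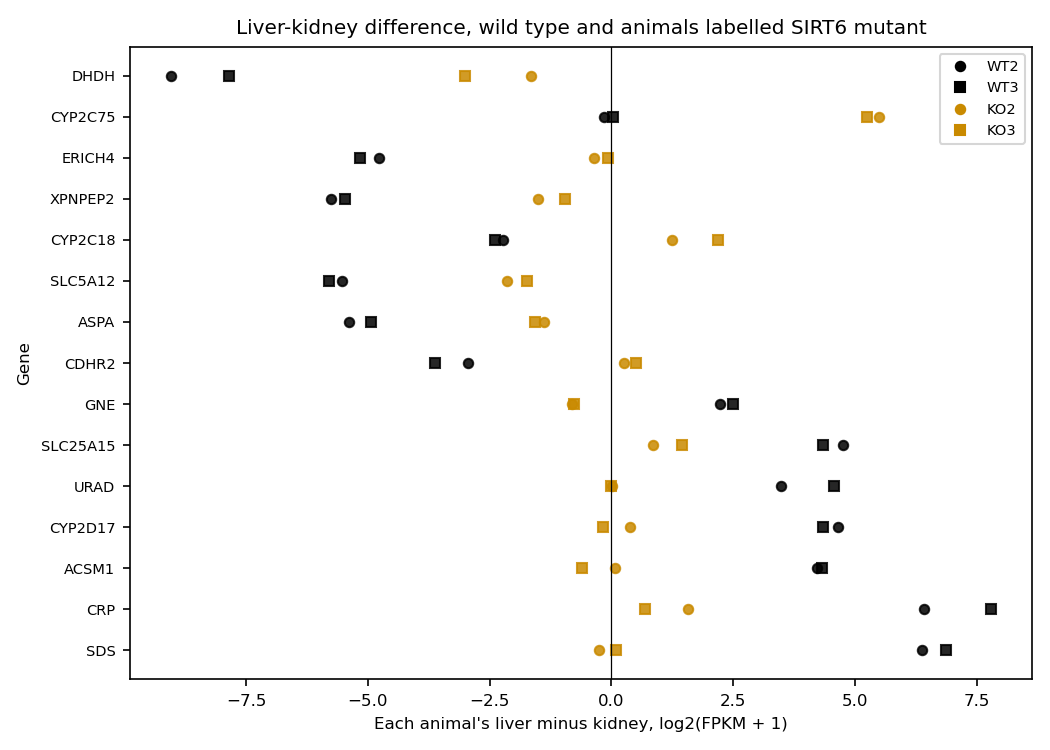
Points give each animal's own liver minus kidney difference on the log2(FPKM + 1) scale, not set relative to the median gene, for 15 genes (rows) in WT2 and WT3 (black) and in KO2 and KO3 (ochre). Black and ochre points do not overlap in any row, which follows from the choice of these genes by smallest p. DHDH lies far towards kidney in the wild-type animals and SDS far towards liver. The KO2 and KO3 points lie near 0 for SDS, URAD and ERICH4.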

How the data were processed

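Total RNA from whole tissue was sequenced (TRIzol extraction, TruSeq libraries, Illumina HiSeq, per the labels' protocols), and the authors deposited FPKM per gene and library. Tools listed in the submitters' processing notes are HISAT 0.1.6, Cufflinks 2.0.2 and CASAVA, with no settings. The build, the annotation and whether counting used strand were not given in the sources used here. Of 28141 genes, 8 Y-linked ones were left out; 721 of 11294 LOC identifiers received a symbol from RefSeq names. The 2 repeat libraries of an animal were averaged on log2(FPKM + 1), and genes with a mean FPKM of at least 1 were tested with limma 3.58.1 in R 4.3.3 (trend, Benjamini-Hochberg, 0.05) in 3 fits: liver against kidney, both organs against the other tissues, and the liver minus kidney difference by genotype. Depth is unknown, so precision rests on 2 animals. The p-values measure the spread between animals, which limma draws towards the spread of genes of like level.

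Repeats correlated across genes at 0.9925 to 0.9949, animals at 0.942 to 0.956 within an organ, and organs at 0.640 to 0.678. Both organs came from the same animals, which pairs them: across 13411 genes the WT2 minus WT3 differences of liver and kidney correlated at 0.471. A fit with the animal as a replicate block is given where it changed a call. Counts for gene lists come from the fits without the block. On simulated data 2.3%, 72.3% and 92.6% of genes changed by 1, 2 and 3 log2 units were recovered between liver and kidney (13411 genes), and 5.83% of calls were false. The simulation changed only a small share of the genes and held no pairing by animal and no shift of the median gene. In the data 40.8% of genes were called, so these rates do not describe the real comparison.

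Named genes were the 15 highest and 15 lowest between the organs and the 15 highest in both (past the threshold, at least 5 FPKM, libraries not overlapping), the pair genes and the 16 widest genotype shifts by the same limits; some genes these rules pick are not reported here, and pairs that held one were left out. The members and lists were chosen with earlier results of these data known, and other list members named in the text were chosen after their values were seen. Alternatives were another pseudocount, filter, scaling, block and unit of replication, and leaving out animals, tissues or libraries.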

Additional observations from a re-analysis of the deposited data

Results flagged for a closer look

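A single library lay far from the other 3 of its organ in 2 of 88 gene and group pairs examined. The limit used singles out about 1 in 20 by chance for 4 independent values. Here the 4 libraries are 2 repeats of each of 2 animals, so that rate does not apply. AHSG had 0.121 FPKM in 1 library of WT3 kidney against 1.78, 2.14 and 2.06 in the other kidney libraries, and MAL had 0.0911 FPKM in 1 library of WT2 liver and was listed at 0 in the other 3. Both values are small beside the other organ.

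The 15 genes below were picked by the smallest p of the genotype test, so non-overlap of the 2 genotypes follows from that choice. In these genes the liver minus kidney difference itself differed by genotype (limma, n = 2 animals per genotype). It lay further towards liver in KO2 and KO3 for DHDH (6.12), CYP2C75 (5.42), ERICH4 (4.75), XPNPEP2 (4.38), CYP2C18 (4.03), SLC5A12 (3.72), ASPA (3.69) and CDHR2 (3.67), on the log2(FPKM + 1) scale. It lay further towards kidney for SDS (-6.71), CRP (-5.97), ACSM1 (-4.53), CYP2D17 (-4.40), URAD (-4.02), SLC25A15 (-3.40) and GNE (-3.14). The limma adjusted p lay between 0.00387 and 0.0233. ERICH4 had 37.0 and 34.6 FPKM in wild-type kidney and 2.47 and 2.32 in that of KO2 and KO3. URAD, of urate breakdown, had 10.2 and 24.0 FPKM in wild-type liver and 0.0729 and 0 in that of KO2 and KO3, and GNE, of sialic acid synthesis, 29.6 and 42.1 against 2.59 and 6.78. Without KO2 the calls of DHDH, SLC25A15, CDHR2, GNE, ASPA and URAD were lost (limma adjusted p from 0.0506 to 0.0634), and that of URAD without KO3 (0.0513).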

How the results depend on the processing

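Between liver and kidney (5478 calls, 944 and 4534), the animal as a replicate block gave 7987 calls and lost none of the named ones; 12 others passed with it. A filter of 5 FPKM, with fewer genes tested, gave 3351 (2679 kidney). Quantile normalisation gave 3333 (1470 and 1863), median centring 3130 (1541 and 1589) and libraries taken as replicates 9598 (1562 and 8036). Leaving out 1 animal's organ or 1 library gave 1680 to 5504 calls, 392 to 953 for liver and 1288 to 4563 for kidney. Both organs against the others (7180 calls) gave 5942 to 6669 without 1 animal's liver or kidney, with 2663 to 3126 higher and 3101 to 3543 lower, and 4654 (2387 lower) with the filter of 5. The genotype comparison (227, 135 and 92) gave 128 (82 and 46) with a pseudocount of 0.1, 0 (0 and 0) without a filter (limma, 3071 at an unadjusted p under 0.05), 51 towards kidney with quantile normalisation, 55 with centring, and 2395 (1153 and 1242) from libraries. Leaving out 1 animal gave 32 to 203 calls, 16 to 125 towards liver and 16 to 78 towards kidney. Of 283 named results past the threshold, 82 lost the call in at least 1 alternative, 73 of them when an animal or library was left out. Past the threshold the relative difference changed sign for RPL37 with a pseudocount of 0.1 (0.0196, limma adjusted p = 0.0487). The median gene stood at -0.73 in that fit, so the difference that was tested stayed towards kidney. The cause of these changes was not tested. Depth is not known, so counting error cannot be separated from the spread of 2 animals, and a gene that missed the threshold is not shown to be equal.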
